A study of Mus musculus with 6 samples.

Results

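The genes described here are 33 transcripts that type I interferon induces, taken from the deposited spleen table by gene symbol. All 33 symbols matched 1 row each of the 26452 genes in the table, and all 33 passed the filter on low values (a mean normalized count of at least 1 over the 6 libraries), as did 22071 genes in all. RNA came from spleens of male mice aged 10 weeks in 2 groups. The knockout group was Was -/- (129S6/SvEvTac-Wastm1Sbs/J), sequenced as KO451, KO452 and KO457. The wild-type group was 129S6/SvEvTac, sequenced as WT453, WT454 and WT455. Only the knockout columns carry a suffix, whose meaning is not stated, and if it marks separate processing, that cannot be told apart from genotype. Was encodes an activator of actin assembly made in blood cells, and the design compares the spleen transcriptomes of the 2 genotypes. The labels give each library its own number but do not state how many mice entered it, so p-values reflect library-to-library spread, which may be technical. The labels do not say which part of Was the allele alters, and all blood cells of a germline knockout carry it.

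Type I interferons are secreted when a cell senses foreign or misplaced nucleic acid. They bind the receptor made of Ifnar1 and Ifnar2, and the kinases Jak1 and Tyk2 then activate transcription factors. A complex that includes Stat2 and Irf9 binds a short element in promoters and switches on antiviral genes. In the spleen, plasmacytoid dendritic cells are a known source of the cytokine, and almost every cell type can answer it.

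WT455 had the fewest reads on genes (30661759) and WT454 the most (38402758). Was itself was at 8.99, 8.67 and 8.68 in KO451, KO452 and KO457 and at 12.02, 12.68 and 12.62 in WT453, WT454 and WT455, on the deposited scale of log2(normalized count + 1). Each library thus had the Was level its label calls for (log2 fold change -3.66 ± 0.25 SE, limma with Benjamini-Hochberg adjusted p = 0.0117). Without WT454 the adjusted p was 0.446, and it also missed 0.05 without KO451, KO452, KO457 or WT455. WT453 stood apart from the other wild-type libraries. Its summed red cell, red pulp macrophage and B cell markers were the lowest of the wild-type group, and its summed markers of handling stress were the highest of all libraries, at 1665 CPM (counts scaled per library total). Its 8 neutrophil markers summed to 48994 CPM, against 3412 in WT454, 5917 in WT455 and 7086 to 34203 CPM in knockout libraries. All 9 stress markers were lower in knockout libraries (median log2 fold change -1.42, and -0.78 without WT453), with 0 past the adjusted limma threshold. They summed to 184 to 299 CPM in knockout and 369 to 1665 CPM in wild-type libraries. A difference in handling can therefore not be told apart from genotype. The summed B cell, T cell, red pulp macrophage and erythroid markers were above 0 in every library. None of these 8 B cell, 9 T cell, 10 red pulp macrophage and 9 erythroid markers was at 0 in all 6 libraries. In such bulk tissue, fewer cells of a type and less RNA per cell cannot be told apart.

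The interferon-induced genes did not move as a block between the genotypes. In knockout libraries 21 of the 33 were higher and 12 lower than in wild-type libraries, with a median log2 fold change of 0.11, beside -0.03 over all genes tested. None passed limma's threshold over all genes, where 0% of genes were called higher and 0.00906% (2 genes) lower. The smallest adjusted p of a member was 0.344. At an unadjusted limma p under 0.05 stood 3 members, Isg15, Rsad2 and Cmpk2, all higher in knockout spleens. That is 9.09% of the members, beside 5.5% of all genes called higher by this rule and 5.46% called lower, the latter with 0 members. With voom on the reads recovered from the deposited values, 0 members passed the adjusted threshold and the count at an unadjusted p under 0.05 was again 3 (all higher, background 5.52%, with 5.13% lower). The authors' deposited table lists 2 members, Isg15 and Rsad2, as higher at an FDR under 0.05, which is 6.06% of the members beside 2.57% of all genes tested. It lists 0 members as lower, beside 1.73% of all genes. In 4 members, those 3 and Ifih1, every knockout library lay above every wild-type library, beside 9.54% of all genes. In 0 members did every knockout library lie below, beside 9.94% of all genes. At least a 2-fold difference was seen in 3 members upward (background 10.1%) and 3 downward (background 12.3%).

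**Figure D1:**
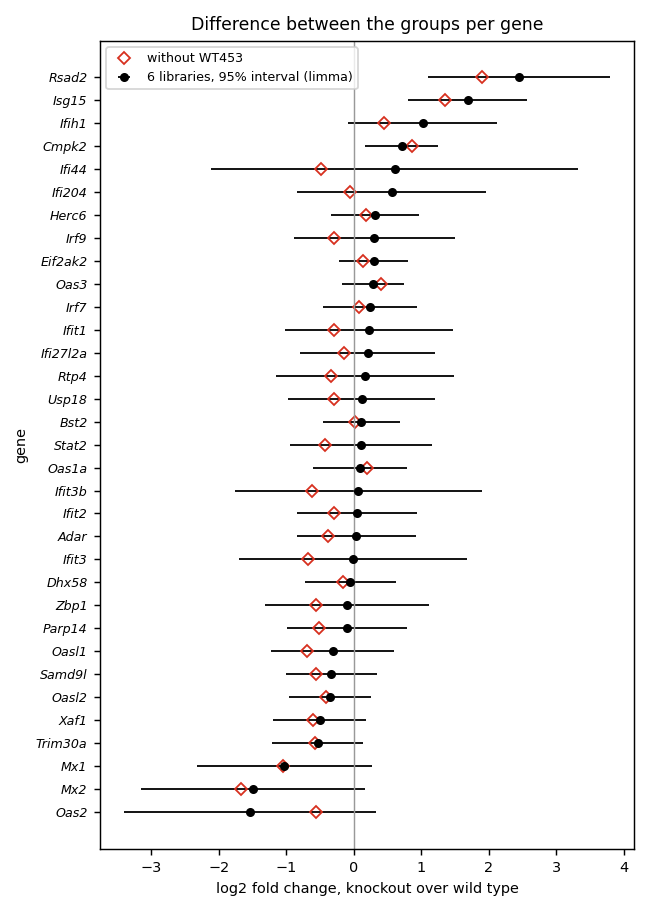
Log2 fold change of each of the 33 genes, knockout over wild type (x axis), with genes on the y axis in order of that value. Filled points are the limma estimate from 6 libraries with its 95% interval, and open diamonds the estimate without WT453. The intervals of Rsad2, Isg15 and Cmpk2 lie above 0, and without WT453 most of the others lie below 0.

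Rsad2 (ENSMUSG00000020641) encodes viperin, an enzyme that makes a chain-terminating nucleotide and blocks the replication of many viruses. It had the largest difference of the 33 genes. On the log2 scale it was at 13.72 in KO451, 12.32 in KO452 and 12.15 in KO457, against 9.19 in WT453, 10.68 in WT454 and 10.99 in WT455. The knockout libraries were all above the wild-type ones, with KO451 highest and WT453 lowest. The log2 fold change was 2.44 ± 0.58 (SE), a 5.44-fold difference (limma, unadjusted p = 0.00353, adjusted p = 0.344), and it was 1.90 without WT453 and 1.95 without KO451. An exact permutation of the labels (two-sided) gave p = 0.1 for Rsad2, Isg15, Cmpk2 and Ifih1 alike, which is the floor with 3 libraries a group. The authors' deposited table gives Rsad2 an FDR of 2.34e-04. As a share of reads it averaged 214 ± 130 CPM in the knockout group and 44.6 ± 24.1 CPM in the wild-type group (SD, n = 3 each).

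Isg15 (ENSMUSG00000035692), on chromosome 4 at 156199424 to 156200818 on the minus strand of GRCm38, encodes a ubiquitin-like protein that is joined to other proteins and is also secreted. It was at 11.78, 11.11 and 10.79 in KO451, KO452 and KO457, against 8.86, 9.91 and 9.85 in WT453, WT454 and WT455. Again KO451 was highest and WT453 lowest, and the groups did not overlap. The log2 fold change was 1.68 ± 0.38 (SE), or 3.21-fold (limma, unadjusted p = 0.00261, adjusted p = 0.344), with a 95% interval from 0.80 to 2.57. It was 1.35 without WT453. Its FDR in the authors' deposited table is 5.33e-04.

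Cmpk2 (ENSMUSG00000020638), a mitochondrial kinase that supplies nucleotides, is the neighbour of Rsad2. Both lie on chromosome 12 of GRCm38, Rsad2 at 26442746 to 26456452 on the minus strand and Cmpk2 at 26469204 to 26479837 on the plus strand. They point away from each other with 12751 bases and 0 protein-coding genes between them. Cmpk2 was at 11.68, 11.24 and 11.36 in KO451, KO452 and KO457, against 11.03, 10.46 and 10.66 in WT453, WT454 and WT455. The groups did not overlap, and here WT453 was the highest wild-type library and WT454 the lowest of all. The log2 fold change was 0.71 ± 0.23 (SE), or 1.63-fold (limma, unadjusted p = 0.0171, adjusted p = 0.373), and 0.87 without WT453. Unlike Isg15 and Rsad2, Cmpk2 lost its unadjusted p under 0.05 when KO451 (0.58), WT454 (0.58) or WT455 (0.68) was left out. The FDR of Cmpk2 in the authors' deposited table is 0.0596.

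The promoters below are shown because interferon acts through a response element whose core is GAAA, any 2 bases, then GAAA again. Of the 23 members with a RefSeq promoter, these 4 have the smallest unadjusted p among those that hold it. Mx2 and Oas2, with a smaller p than Trim30a, had no such promoter to search. Sequences are from RefSeq on GRCm38.p6, from 250 bases before to 50 bases after the transcription start, 5′ to 3′ on the gene's strand. Capitals mark that core or its reverse complement.
Isg15, chr4:156200769-156201068, minus strand: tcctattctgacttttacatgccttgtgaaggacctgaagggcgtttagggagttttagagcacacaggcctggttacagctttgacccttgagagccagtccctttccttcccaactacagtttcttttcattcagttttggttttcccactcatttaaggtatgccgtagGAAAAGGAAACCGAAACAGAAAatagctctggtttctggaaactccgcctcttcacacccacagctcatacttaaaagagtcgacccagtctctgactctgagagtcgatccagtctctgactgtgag
Rsad2, chr12:26456403-26456702, minus strand: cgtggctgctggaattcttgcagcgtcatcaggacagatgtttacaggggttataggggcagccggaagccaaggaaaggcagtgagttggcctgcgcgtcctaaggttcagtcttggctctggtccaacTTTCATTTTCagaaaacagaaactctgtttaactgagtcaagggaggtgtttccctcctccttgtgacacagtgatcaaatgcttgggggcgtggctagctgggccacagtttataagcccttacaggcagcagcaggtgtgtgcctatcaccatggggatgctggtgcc
Ifih1, chr2:62646206-62646505, minus strand: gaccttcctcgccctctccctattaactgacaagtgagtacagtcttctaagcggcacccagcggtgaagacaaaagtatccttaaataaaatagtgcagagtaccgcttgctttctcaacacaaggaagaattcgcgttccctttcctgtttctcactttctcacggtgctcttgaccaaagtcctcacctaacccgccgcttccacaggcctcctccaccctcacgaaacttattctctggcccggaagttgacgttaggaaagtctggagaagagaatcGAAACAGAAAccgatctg
Trim30a, chr7:104465144-104465443, minus strand: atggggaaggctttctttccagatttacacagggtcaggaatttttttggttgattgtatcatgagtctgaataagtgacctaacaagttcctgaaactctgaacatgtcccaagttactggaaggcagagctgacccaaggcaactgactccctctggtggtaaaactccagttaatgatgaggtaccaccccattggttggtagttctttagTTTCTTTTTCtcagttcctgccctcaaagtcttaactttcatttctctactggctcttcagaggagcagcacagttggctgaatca
Isg15 holds 3 overlapping matches whose first bases lie 78, 72 and 66 bases before the start. Rsad2 holds 1 match, in reverse orientation, 120 bases before the start, and that of Ifih1 begins at base 33 after it. Trim30a, a ubiquitin ligase that restrains Toll-like receptor signalling, had a log2 fold change of -0.54 ± 0.29 (SE), so a match was found on genes that were higher and on one that was lower in knockout libraries. Of 23 members with a RefSeq promoter 12 held a match in at least 1 start (52.2%), against 3.99% of 27025 genes, both strands searched. The window of Cmpk2 held no match. The gamma-activated core TTCNNNGAA was in the promoters of 5 members of 23 (21.7%), against 9.55% of all genes. It is its own reverse complement and was counted apart from the first motif. The other members, Oas2, Dhx58, Zbp1, Ifi27l2a, Usp18, Rtp4, Mx1, Mx2, Ifi204 and Parp14, were not analysed here for motifs.

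**Figure D2:**
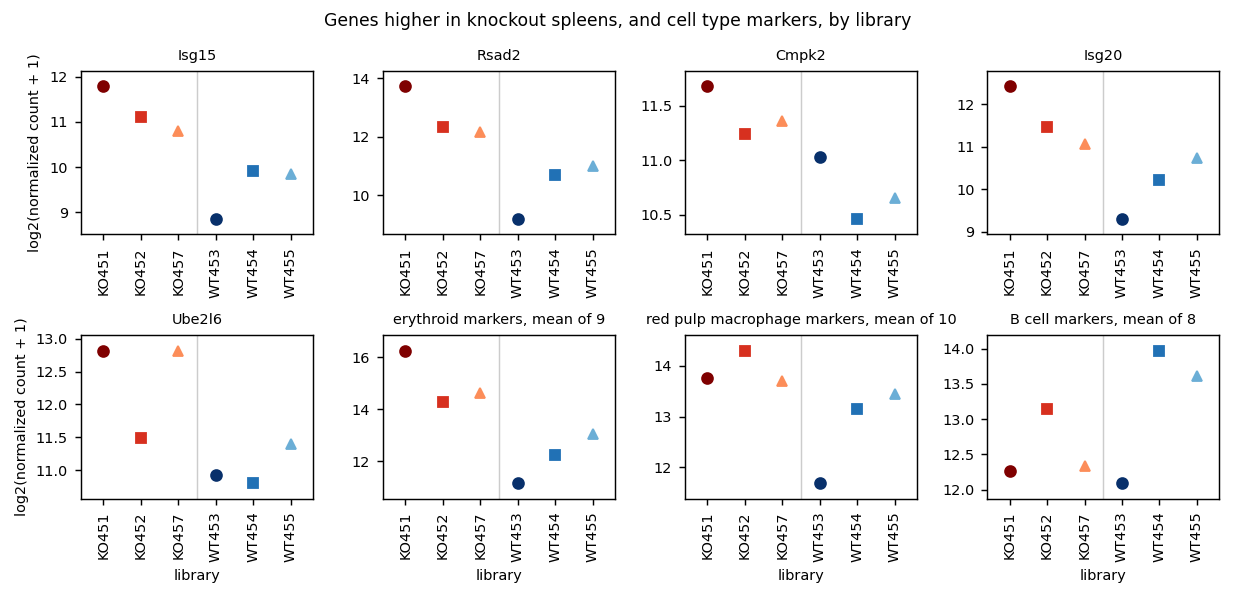
Levels on the log2(normalized count + 1) scale (y axis) in each of the 6 libraries (x axis) for Isg15, Rsad2, Cmpk2, Isg20 and Ube2l6 and for the mean of the erythroid, red pulp macrophage and B cell markers. The 5 genes and the erythroid and macrophage means are higher in all 3 knockout libraries than in all 3 wild-type ones, whereas the B cell means overlap. Each y axis covers only the range of its own values and does not start at 0.

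The means of red cell precursor and of red pulp macrophage markers, like Isg15 and Rsad2, were higher in all knockout than in all wild-type libraries. All 9 erythroid markers had a positive log2 fold change (median 3.11), and none was at 0 in all 6 libraries. Their sum ranged from 21469 to 64182 CPM in knockout and from 1745 to 9508 CPM in wild-type libraries. KO451, the library with the most Rsad2 and Isg15, had the highest mean of these markers (16.26 on the log2 scale), and WT453, with the least, had the lowest (11.18). Among the other libraries this mean was higher in KO457 (14.63) than in KO452 (14.29) and higher in WT455 (13.06) than in WT454 (12.24). Rsad2 shared only the order of WT455 and WT454, and Isg15 shared neither. The most abundant erythroid markers, the globin genes Hbb-bs and Hba-a1, had log2 fold changes of 3.13 ± 0.75 and 2.75 ± 0.61 (SE). All 10 red pulp macrophage markers were higher too (median 1.24), with Hmox1 at 0.98 ± 0.55 and Vcam1 at 0.93 ± 0.53. They summed to 4934 to 8791 CPM in knockout and 1412 to 4897 CPM in wild-type libraries. Without WT453, 9 of these 10 were higher (median 0.72), as were all 9 erythroid markers (median 2.33). With all 6 libraries, 0 erythroid and 0 red pulp markers passed the adjusted limma threshold. The mean of the red pulp markers was highest in KO452 (14.30 on the log2 scale), not in KO451 (13.76), and lowest in WT453 (11.70). Their part in the differences of Isg15, Rsad2 and Cmpk2 was not tested.

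Enzymes that act with Isg15 on proteins did not all follow it. Usp18, the protease that removes Isg15 and also restrains the interferon receptor, differed by 0.11 ± 0.47 (log2 fold change ± SE). Herc6, the ligase that attaches Isg15 in mice, differed by 0.31 ± 0.28. Ube2l6, the conjugating enzyme of the same pathway and not one of the 33 genes, had one of 1.32 ± 0.39 (limma, unadjusted p = 0.0109, adjusted p = 0.354) and an FDR of 0.0054 in the authors' deposited table.

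The transcription factors of the pathway were close between the groups relative to their spread. Irf7, the factor that amplifies interferon production, was at 10.49, 11.32 and 10.57 in KO451, KO452 and KO457 and at 10.22, 10.88 and 10.56 in WT453, WT454 and WT455. The 2 ranges overlapped, with KO452 the highest library and WT453 the lowest, and the log2 fold change was 0.24 with a 95% interval from -0.46 to 0.93. Stat2 had 0.11 ± 0.45 (SE) and Irf9 had 0.30 ± 0.51. Without WT453 these last 2 were -0.42 and -0.30.

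Among the sensors of nucleic acid, Ifih1, which encodes the double-stranded RNA sensor MDA5, differed most. It was at 10.89, 10.81 and 10.49 in KO451, KO452 and KO457, against 8.57, 10.33 and 10.24 in WT453, WT454 and WT455. Every knockout library was above every wild-type library, by a small margin except for WT453, which was far below. The log2 fold change of 1.02 ± 0.47 (SE; limma, unadjusted p = 0.0652, adjusted p = 0.487) became 0.45 without WT453 and 1.32 without WT454. When reads were scaled to the library total instead, KO457 (39.5 CPM) lay below WT454 (41.0 CPM) and the groups of Ifih1 overlapped. The other 5 genes of this role had smaller differences, of which Ifi204, a DNA-binding protein of the Ifi200 family, had 0.56 ± 0.60. Eif2ak2, the kinase PKR that halts translation, had 0.29 ± 0.22, and Adar, which edits adenosines in double-stranded RNA, had 0.04 ± 0.38. Dhx58, the regulator LGP2 of RNA sensing, had -0.05 ± 0.29, and Zbp1, a sensor of left-handed nucleic acid, had -0.10 ± 0.52. Of the 50-base stretches of Ifi204 transcripts, 20.0% also occur in transcripts of other genes, mainly Ifi211 and Mndal, so its reads may be split between them.

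The oligoadenylate synthetases, which make the messenger that activates RNase L, went in both directions. Oas2 was at 7.77, 8.35 and 8.37 in KO451, KO452 and KO457, against 11.64, 9.22 and 8.22 in WT453, WT454 and WT455. WT453 alone was far above the rest, and WT455 lay within the knockout range. The log2 fold change of Oas2 was -1.53 ± 0.79 (SE; limma, unadjusted p = 0.0935, adjusted p = 0.517), which shrank to -0.56 without WT453 and grew to -2.27 without WT455. WT453 was the lowest library in 21 of the 33 genes (63.6%), beside 25.8% of all genes tested. Among the 33 it was the highest library only in Oas2 (3.03%), beside 31.7% of all genes. Oas3 had 0.28 ± 0.20, Oas1a 0.09 ± 0.30, Oasl1 -0.31 ± 0.39 and Oasl2 -0.35 ± 0.26. Oas1a shares 57.6% of its 50-base stretches with other genes, chiefly Oas1g, so its value is uncertain.

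The IFIT proteins bind foreign RNA ends and block their translation, and their genes varied more between libraries than between the groups. Ifit3 was at 8.90, 11.07 and 9.81 in KO451, KO452 and KO457, against 8.61, 10.94 and 10.26 in WT453, WT454 and WT455. Each group held 1 library near 11 and 1 below 9, and the log2 fold change was -0.01 with a 95% interval from -1.70 to 1.67. Its near-identical copy Ifit3b was at 7.03, 9.52 and 8.10 in the knockout and 6.78, 9.08 and 8.59 in the wild-type libraries, in the same order. Of the 50-base stretches of Ifit3, 51.2% also occur in other genes, chiefly Ifit3b, so reads may be split between them and their likeness is not independent. Ifit1 was at 8.85, 9.95 and 8.71 in KO451, KO452 and KO457 and at 7.90, 9.66 and 9.27 in WT453, WT454 and WT455. In Ifit1 too KO452 was highest and WT453 lowest, with a log2 fold change of 0.23 ± 0.53 (SE). Ifit2 had 0.05 ± 0.38.

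Other antiviral effectors were mostly lower or near level. Mx1, a dynamin-like GTPase that blocks influenza viruses, showed a log2 fold change of -1.03 ± 0.55 (SE), while Mx2 showed -1.50 ± 0.71. The annotation calls Mx2 a polymorphic pseudogene, since some mouse strains carry a broken copy. In both genes KO451 was the lowest library, at 6.33 for Mx1 and 4.26 for Mx2, whereas KO452, at 8.57, was the highest library for Mx1 and, at 6.89, lay within the wild-type range for Mx2. Without KO452 the log2 fold change was -1.66 for Mx1 and -2.26 for Mx2, and without KO451 it was -0.54 and -0.95. Samd9l, a brake on cell growth, had -0.33 ± 0.29, and Bst2, or tetherin, which holds budding viruses at the cell surface, had 0.11 ± 0.24.

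Of the 5 remaining genes, Xaf1, which promotes cell death, had the smallest p. It was at 8.51, 9.45 and 8.84 in KO451, KO452 and KO457, against 9.24, 9.51 and 9.56 in WT453, WT454 and WT455. KO451 and KO457 were below all wild-type libraries but KO452 was not, and the log2 fold change was -0.50 ± 0.29 (SE). Ifi27l2a, a small mitochondrial membrane protein gene, had the highest level of the 33 genes, at 275 RPKM (CPM divided by kilobases of exon) over the 6 libraries. It was at 11.93, 12.69 and 11.56 in KO451, KO452 and KO457 and at 11.15, 12.59 and 11.83 in WT453, WT454 and WT455, on the log2 scale. The groups overlapped, with KO452 highest and WT453 lowest, and with a log2 fold change of 0.20 ± 0.43. Ifi44 had 0.60 ± 1.16, Rtp4 0.17 ± 0.56 and Parp14, an ADP-ribosyltransferase, -0.11 ± 0.38.

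Per kilobase of exon, levels ran over a wide range. After Ifi27l2a came Bst2 at 75.0, Isg15 at 62.5, Rsad2 at 29.8 and Trim30a at 29.6 RPKM, as means of 6 libraries. The lowest were Mx1 at 2.07, Mx2 at 0.753 and Ifi44 at 0.413. Between the groups, Isg15 stood at 92.5 ± 30.9 (SD, n = 3) in knockout libraries, beside 75.1 ± 24.8 for Bst2, and at 32.5 ± 12.2 in wild-type libraries, beside 75.0 ± 10.9 for Bst2. The spreads of Isg15 and Bst2 overlap in knockout but not in wild-type libraries. Rsad2 and Trim30a, neighbours in that order, overlapped over the 6 libraries, Rsad2 ranging from 4.06 to 83.8 RPKM and Trim30a from 15.9 to 43.1 RPKM.

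**Figure D3:**
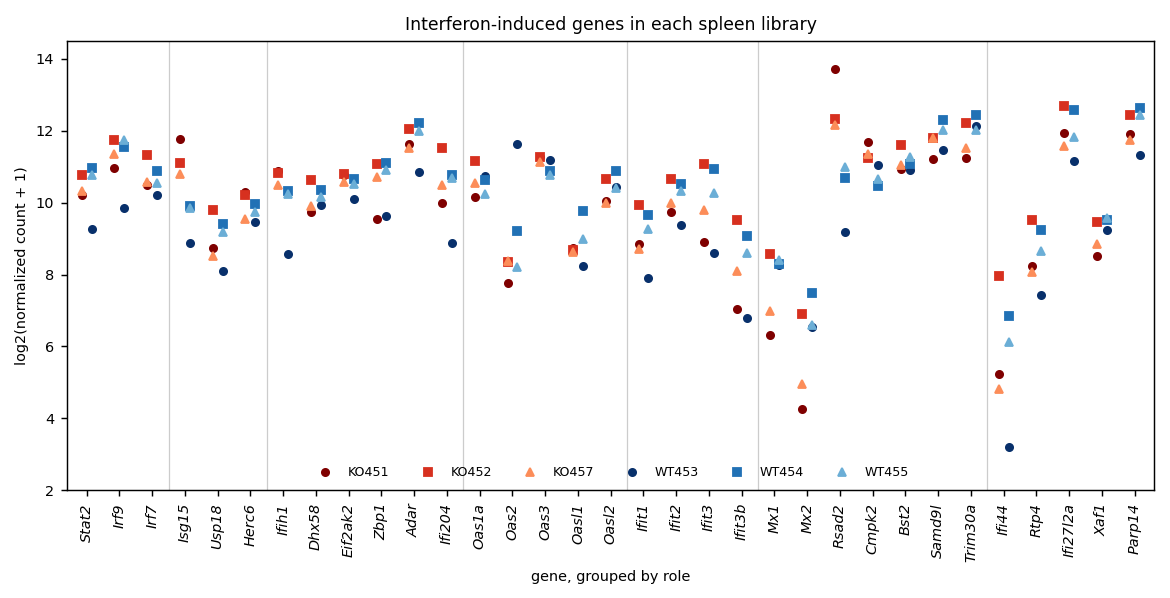
Log2(normalized count + 1) of each of the 33 genes (x axis, grouped by role with grey lines between roles) in each library (knockout in reds, wild type in blues). In most genes the red and blue points mix. In Isg15, Ifih1, Rsad2 and Cmpk2 every red point is above every blue point.

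Within each genotype the libraries differed in the same way in most of the genes. KO452 was above both other knockout libraries in 25 of 33 members, beside 33.6% of all genes tested, and WT453 was below both other wild-type libraries in 27 of 33, beside 38.7% of all genes. Both held in 21 of 33, beside 17.2% of all genes. The mean log2 level over the 33 genes was 9.78, 10.60 and 9.85 in KO451, KO452 and KO457 and 9.41, 10.40 and 10.12 in WT453, WT454 and WT455. The knockout and wild-type libraries thus overlapped in this mean. KO451 was the highest of all libraries in 5 members (15.2%), beside 20.4% of all genes tested. These were Isg15, Rsad2, Cmpk2, Ifih1 and Herc6, the last with KO452 close behind (10.31 and 10.22). Lymphocyte markers had a like order in part. The mean of the 9 T cell markers was 11.03, 11.75 and 11.22 in the knockout and 10.82, 12.39 and 12.30 in the wild-type libraries, so KO452 was the highest knockout and WT453 the lowest wild-type library. The 7 markers of plasmacytoid dendritic cells summed to 104 to 112 CPM in knockout and 44.4 to 209 CPM in wild-type libraries. Of these markers 4 were higher and 3 lower, and none was at 0 in all 6 libraries. Their mean was lowest in WT453 (7.12 on the log2 scale), but KO452 (8.67) was not the highest of the knockout libraries. The part of these cell types in the order of the libraries was not tested.

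**Figure D4:**
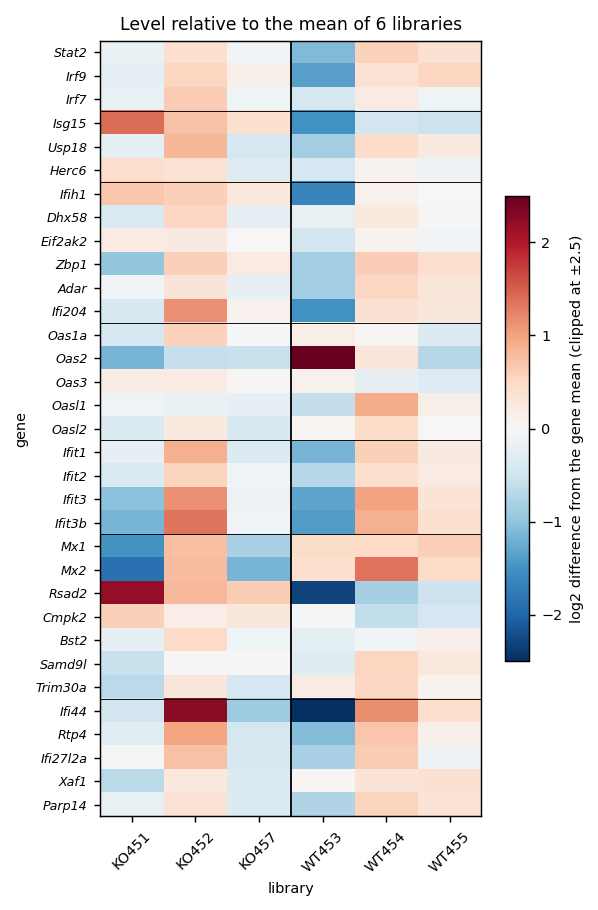
Log2 level of each gene (y axis, roles separated by lines) in each library (x axis, knockout left of the vertical line) less that gene's mean over the 6 libraries, with colours clipped at 2.5 either way. KO452 and WT454 are mostly red (above the mean) and WT453 mostly blue (below it), while Isg15 and Rsad2 are red in KO451 and Oas2 is red in WT453.

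Because WT453 weighs on this list, the counts were also taken without it. Of the 33 members 10 were then higher and 23 lower, with a median log2 fold change of -0.30, beside -0.02 over all genes. Those at an unadjusted limma p under 0.05 were 5 higher (Isg15, Rsad2, Cmpk2, Ifih1 at 0.45 and Oas3 at 0.40), beside 9.7% of all genes, and 2 lower (Oasl1 at -0.69 and Samd9l at -0.57), beside 9.53%. None passed the adjusted threshold, the smallest adjusted p being 0.19. In the same comparison all 8 B cell markers (median -1.13), 8 of 9 T cell markers (median -0.97) and all 7 NK cell markers (median -1.01) were lower at an unadjusted p under 0.05, and their part in the members' shift was not tested. Without KO452 the median was -0.22 and the same rule gave 3 higher (background 5.28%) and 4 lower (Mx1, Mx2, Trim30a and Xaf1, background 5.22%). When reads were scaled to the library total, which lowered the median of all genes from -0.03 to -0.17, 14 members were higher and 19 lower. Weighting the libraries by quality, with WT455 weighted most, gave 4 higher (background 13.2%) and 4 lower (background 13.9%). Scaling to the total gave 3 members higher at an unadjusted p under 0.05 (background 3.84%) and 0 lower (background 8.03%).

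Interferon ligands were barely measured. Of 21 ligand genes listed, Ifng and Ifnz matched the table, and the other 19 were not analysed here. Ifnz, a type I interferon, had 3 reads in KO451 and 0 in the other 5 libraries, where 0 reads allow up to 0.0781 to 0.0978 CPM by counting error alone, and it did not pass the filter. Ifng, the type II interferon of T and NK cells, was at 0.579, 1.20 and 1.11 CPM in KO451, KO452 and KO457 and at 1.74, 1.54 and 1.92 CPM in WT453, WT454 and WT455. The knockout libraries were all below the wild-type ones, with a log2 fold change of -0.74 ± 0.43 (SE; limma, adjusted p = 0.545).

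Receptors and kinases were lower in 7 of 11 and higher in 4, with a median of -0.37, and 0 passed the adjusted limma threshold. The log2 fold change was -0.40 ± 0.26 (SE) for Ifnar1 and 0.12 ± 0.17 for Ifnar2. The receptor of interferon gamma was lower in both chains, Ifngr1 by -0.46 ± 0.17 (limma, adjusted p = 0.408) and Ifngr2 by -0.37 ± 0.23, and Stat3 was at -0.52 ± 0.26. Of 15 sensors and adaptors upstream of interferon production, 10 were lower and 5 higher (median -0.17). Tmem173, or STING, the adaptor of cytosolic DNA sensing, had -0.77 ± 0.30 and Irf3, the factor it activates, -0.55 ± 0.22, both at an unadjusted limma p under 0.05. Ikbke had -0.61 ± 0.37 and Traf3 0.95 ± 0.60. The 5 further interferon regulatory factors had a median of -0.29, with Irf2 at -0.22 ± 0.26, Irf4 at -0.31 ± 0.38 and Irf8 at -0.29 ± 0.46.

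Of 11 genes that restrain the response or clear nucleic acid, 5 were higher and 6 lower (median -0.03). Isg20, an exonuclease that degrades viral RNA, had a log2 fold change of 1.56 ± 0.46 (SE; limma, unadjusted p = 0.011, adjusted p = 0.354), with all knockout libraries above all wild-type ones. It was 1.18 both without WT453 and without KO451, and its FDR in the authors' deposited table is 0.0122. Socs3, an inhibitor of cytokine receptors, had -0.67 ± 0.26, Samhd1, which depletes nucleotides, -0.51 ± 0.22, and Rnaseh2a, which removes RNA from DNA, 0.54 ± 0.25. In KO451 and WT453 levels of Isg20 ran in the order of the erythroid markers, as did those of Isg15 and Rsad2. In the other libraries the order of Isg15 and Rsad2 differed from that of these markers in all or part. The part of red cell precursors was not tested.

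A further 60 interferon-induced genes outside the 33 had a median log2 fold change of -0.28, with 22 higher and 38 lower. With an unadjusted limma p under 0.05 came 1 higher gene, Ube2l6, and 6 lower ones, beside 5.5% and 5.46% of all genes, and 0 passed the adjusted threshold. Isg20, described above, was counted with the genes that restrain the response or clear nucleic acid and not among these 60. Lymphocyte markers were lower in knockout libraries too, all 8 of B cells (median -0.64), all 9 of T cells (median -0.53) and all 7 of NK cells (median -0.35), with 0 past the adjusted threshold. B cell markers summed to 1372 to 2881 CPM in knockout and 1440 to 4969 CPM in wild-type libraries. T cell markers summed to 548 to 1021 and 570 to 1695 CPM, and NK cell markers to 163 to 296 and 226 to 450 CPM. None of these markers was at 0 in all 6 libraries. Their part in the lower levels of these genes, the receptors and the sensors was not tested. Of the 60 genes, the lower ones with the smallest p were Ifi213 (-1.84 ± 0.47 SE), of the Ifi200 family, and Trim12a (-0.77 ± 0.24) and Trim12c (-0.78 ± 0.25), ubiquitin ligases related to Trim5. In each of these 3 all knockout libraries were below all wild-type ones, and the authors' deposited table gives them FDRs of 0.0149, 0.0486 and 0.0395. Trim12c shares 33.7% of its 50-base stretches with other genes, chiefly Trim5 and Trim12a, and Ifi213 shares 15.6%, so reads may be split. Without WT453, 1 gene was higher and 14 lower at that p, of 59 tested, beside 9.7% and 9.53% of all genes. The 17 genes that lean to interferon gamma had a median of -0.15, with 5 higher and 12 lower and 0 at an unadjusted p under 0.05. Among them Gbp4 had -0.75 ± 0.52, Irgm2 -0.28 ± 0.26, Gbp5 -0.35 ± 0.37 and Nos2 -1.65 ± 1.87.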

How the data were processed

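Spleen RNA of 3 knockout and 3 wild-type mouse libraries was sequenced after an mRNA library preparation, per the labels' protocols. Tools listed in the submitters' processing notes, without roles, are STAR 2.5.3a, FastQC 0.11.5, DESeq and StringTie 1.3.1c, with the build GRCm38. How reads were counted, with which annotation and strand setting, is not given in the sources used here. Per gene and library, the authors deposited a log2 value, and their own log2 fold change, p-value and FDR. Each deposited log2 value equals log2(read count divided by a size factor, plus 1): 100% of values came out as whole reads within a tolerance of 0.001.

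Limma 3.58.1 in R 4.3.3 was run with an intensity trend on the deposited log2 values of all 6 libraries, on 22071 genes with a mean normalized count of at least 1 (4381 left out), with Benjamini-Hochberg adjustment over all of them and a threshold of 0.05. Log2(value + 1) understates changes of low genes. CPM are shares of recovered reads, and levels per kilobase use the union of exons in GENCODE M21 (GRCm38), where 26404 of 26452 identifiers and all 33 members were found. Promoters are from RefSeq (GRCm38.p6). Overlap of sequence between genes was counted in stretches of 50 bases of GENCODE transcripts.

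The members and lists were chosen with earlier results of these data known. Values in every library are given for members with an unadjusted p under 0.05, the smallest p of each role, the highest level per length, and Ifit3 and Ifit3b. From each pathway list up to 4 genes of smallest p are named, with the measured ligands, Ifnar1 and Ifnar2; some named by this rule are not reported here. Mx1 and Mx2 were described further after their values were seen. Alternatives were no filter, a mean of 1 CPM as filter, a pseudocount of 0.1 or of 10, quantile normalization, scaling to the total with and without immunoglobulin and haemoglobin genes, array quality weights, voom on recovered reads, and each library left out in turn.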

Additional observations from a re-analysis of the deposited data

How the results depend on the processing

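Over 15 alternatives, 14 of the 33 members kept the sign of their log2 fold change, Isg15 (1.28 to 1.90), Rsad2 (1.70 to 2.79) and Cmpk2 (0.56 to 0.87) among them, and 0 members passed the adjusted limma threshold in any. The smallest adjusted p was 0.0632, for Isg15 and Cmpk2 with array quality weights. Those weights gave WT453 a weight of 0.16 and called 16 genes, against 2, and 8 members at an unadjusted p under 0.05, against 3. A pseudocount of 10 called 1 gene, as did voom. With 1 library left out, between 0 and 2 genes were called, between 2 and 7 members had an unadjusted p under 0.05, and the median of the members ran from -0.30 to 0.37. With quantile normalization, the log2 fold change became negative for Adar (-0.011) and Ifit2 (-0.022). With scaling to the total, the log2 fold change became negative for Stat2 (-0.039), Usp18 (-0.032), Adar (-0.11), Oas1a (-0.056), Ifit2 (-0.099), Ifit3b (-0.081) and Bst2 (-0.035). With that scaling less immunoglobulin and haemoglobin genes, the log2 fold change became negative for Adar (-0.052), Ifit2 (-0.042) and Ifit3b (-0.025). With array quality weights, the log2 fold change became negative for Stat2 (-0.34), Irf9 (-0.29), Usp18 (-0.27), Adar (-0.33), Ifit1 (-0.22), Ifit2 (-0.22), Ifit3b (-0.40), Bst2 (-0.042), Ifi44 (-0.39), Rtp4 (-0.22) and Ifi27l2a (-0.0039). Leaving out 1 library changed the sign of Dhx58 (-0.32 to 0.13), Zbp1 (-0.56 to 0.35), Ifit3 (-0.68 to 0.50), Stat2 (-0.42 to 0.42), Irf7 (-0.024 to 0.40), Usp18 (-0.29 to 0.37), Adar (-0.38 to 0.30), Oas1a (-0.17 to 0.32), Ifit1 (-0.30 to 0.58), Ifit2 (-0.30 to 0.27), Ifit3b (-0.62 to 0.66), Bst2 (-0.098 to 0.24), Ifi44 (-0.49 to 1.33), Rtp4 (-0.33 to 0.56), Ifi27l2a (-0.15 to 0.57), Parp14 (-0.51 to 0.15), Irf9 (-0.30 to 0.65), Ifi204 (-0.056 to 0.91) and Oasl1 (-0.69 to 0.073), given as the lowest and highest log2 fold change. The cause of these changes was not tested. Was kept its sign in every alternative, from -3.87 to -3.53. Counting error weighs most on Ifi44 and Mx2, which were at 0.248 and 0.492 CPM in their lowest libraries. No paired analysis was possible because the groups share no replicate numbers.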
